A study of Mus musculus with 13 samples.

Results

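10 genes linked to heat production and fat oxidation in adipocytes, not all of which promote them, were followed in epididymal white adipose tissue. The genes were Ppargc1a, Ppara, Prdm16, Dio2, Adrb3, Kcnk3, Otop1, Elovl3, Cidea and Ucp1. They were chosen by name, and each was read from the probe sets whose only listed gene symbol was its own, taking the probe set with the highest mean. Of the 10 genes, 9 were measured in this way, among 18820 genes in all, and Adrb3, the β3-adrenergic receptor, was not analysed here. Male mice were 6 weeks old when they were put on chow with 13% or a high-fat diet with 60% of its energy as fat, and 18 weeks old after 12 weeks on the diet. The groups were wild-type C57BL/6 mice on chow (3 arrays) and on high-fat diet (3 arrays), and P2X7-/- mice of the strain B6.129P2-P2rx7tm1Gab/J, backcrossed to B6 for 7 generations, on chow (3 arrays) and on high-fat diet (4 arrays). The knockout lacks P2X7, an ion channel opened by extracellular ATP, in the whole animal, and it was made in cells of another strain, so DNA of that strain around the altered gene can remain after backcrossing. Nothing in the labels says that each array held a separate animal, and p-values then reflect only the spread over these samples, which may be technical.

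Brown and beige adipocytes turn chemical energy into heat through UCP1, a protein of the inner mitochondrial membrane that lets protons back in without making ATP. Noradrenaline acts on β-adrenergic receptors, cAMP rises, and the coactivator PGC-1α (Ppargc1a) together with nuclear receptors such as PPARα switches on the genes of mitochondria and fat burning. White fat of the epididymal depot is known for storing triglyceride and for holding few such cells.

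The promoters of Dio2, Ucp1, Ppargc1a, Ppara and Otop1 are shown because these genes, with Elovl3 those that passed the test in wild-type mice, moved in opposite directions although several are known to answer to cAMP. Of the 10 genes, 6 had an entry in the RefSeq promoter table (GRCm38.p6). The windows below are the 250 bases before the start of the gene, read 5′ to 3′ on the gene's own strand, with motif matches in capitals. They lie at chr12:90739039-90739288 (minus strand) for Dio2, chr8:83290098-83290347 (plus strand) for Ucp1, chr5:51567726-51567975 (minus strand) for Ppargc1a, chr15:85735526-85735775 (plus strand) for Ppara and chr5:38277154-38277403 (plus strand) for Otop1.
Dio2: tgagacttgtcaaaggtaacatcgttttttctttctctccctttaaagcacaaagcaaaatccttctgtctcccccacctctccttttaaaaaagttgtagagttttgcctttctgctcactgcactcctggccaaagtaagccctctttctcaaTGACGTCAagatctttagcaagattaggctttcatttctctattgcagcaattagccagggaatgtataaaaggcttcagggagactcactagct
Ucp1: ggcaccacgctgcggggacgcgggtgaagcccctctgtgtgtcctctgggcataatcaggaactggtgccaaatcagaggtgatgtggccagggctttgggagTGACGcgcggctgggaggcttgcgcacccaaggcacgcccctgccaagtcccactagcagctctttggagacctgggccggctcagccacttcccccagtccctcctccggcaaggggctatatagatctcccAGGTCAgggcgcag
Ppargc1a: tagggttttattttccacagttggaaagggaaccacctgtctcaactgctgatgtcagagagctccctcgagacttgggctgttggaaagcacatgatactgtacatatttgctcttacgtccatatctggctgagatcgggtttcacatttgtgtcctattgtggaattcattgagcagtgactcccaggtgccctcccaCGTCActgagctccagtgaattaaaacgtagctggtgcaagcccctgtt
Ppara: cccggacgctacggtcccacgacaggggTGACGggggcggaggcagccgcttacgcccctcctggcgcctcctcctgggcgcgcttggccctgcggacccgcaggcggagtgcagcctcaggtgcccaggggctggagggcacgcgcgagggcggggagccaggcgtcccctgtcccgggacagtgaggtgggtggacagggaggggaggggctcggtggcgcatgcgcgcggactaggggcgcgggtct
Otop1: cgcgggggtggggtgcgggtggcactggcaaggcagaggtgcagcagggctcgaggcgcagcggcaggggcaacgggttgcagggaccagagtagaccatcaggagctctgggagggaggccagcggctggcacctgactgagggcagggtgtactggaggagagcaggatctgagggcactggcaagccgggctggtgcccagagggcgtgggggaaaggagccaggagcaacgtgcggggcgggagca

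The motifs were searched on both strands. They were the full cAMP response element TGACGTCA, the nuclear receptor core site AGGTCA, a pair of such core sites spaced by 1 base (AGGTCANAGGTCA), the ERR site TCAAGGTCA, the C/EBP site TTGCGCAA and, added after the others had been searched, the short cAMP element TGACG, which lies inside the full one. Dio2 held a full cAMP response element from 95 to 88 bases upstream, a sequence found in 1.56% of 32536 windows of this length. Ucp1 held a core site from 14 to 9 bases upstream, as did 14.0% of all windows, and the short element from 147 to 143 bases upstream, as did 17.9%. The short element also stood on the reverse strand of the Ppargc1a window, from 49 to 45 bases upstream, and in the Ppara window, from 222 to 218 bases upstream. The Otop1 window held none of these letters, and no window of the 5 held the paired core sites, the ERR site or the C/EBP site, which 0.0338%, 0.375% and 0.166% of all windows held. The windows differed in base composition, with 41.6% G and C in Dio2, 48.0% in Ppargc1a, 64.8% in Ucp1, 70.0% in Otop1 and 76.4% in Ppara, against a median of 52.4% over all windows. A match is a description of the letters and not evidence of a bound factor.

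The array values are log2 expression values, on which a difference of 1 is a 2-fold difference in signal. Array medians lay between 5.72 and 5.88, and the correlation across genes between arrays of the same group was 0.993 to 0.997. P2rx7 itself was read at 7.91 to 8.41 in wild-type and 7.90 to 8.23 in knockout mice on chow, and at 9.36 to 9.69 and 8.90 to 9.14 on high-fat diet. The position of its probe set relative to the altered part was not given in the sources used here, and its level checks nothing about the labels. The 10 adipocyte markers averaged 12.28 and 12.32 on chow in wild-type and knockout mice and 11.58 and 11.70 on high-fat diet, and 8 and 7 of the 10 fell while 1 rose. All 10 macrophage markers rose in both genotypes, with averages of 9.55 and 9.71 on chow and 11.14 and 11.03 on high-fat diet. Markers of liver averaged 6.94 in wild-type mice on chow, with arrays from 6.52 to 7.49, and 5.75 on high-fat diet, against 5.40 on chow and 5.21 on high-fat diet in the knockout. Of the 3 markers of classical brown fat depots, 0 passed the test for diet in either genotype, and Zic1 stayed at 3.54 to 3.59 in the group means, inside the range of dim probes. Lhx8 (group means of 4.97 to 5.06) and Eva1a (5.72 to 6.09), the other markers of that list, read above it. All 6 mesothelial markers fell in both genotypes, by a median of 1.29 in wild-type and 1.17 in knockout mice. Endothelial markers fell in 4 of 5 cases in wild-type and 2 of 5 in knockout mice, and smooth muscle and pericyte markers in 4 of 6 and 2 of 6, with 1 of 6 risen in each. Liver markers fell in 10 of 14 and 1 of 14 cases, and skeletal muscle markers in 3 of 10 and 4 of 10. Of all genes, 18.1% fell and 17.7% rose in wild-type mice, and 19.7% and 14.5% did so in knockout mice. In these 4 lists 0 markers passed for the diet-by-genotype interaction. The part of these markers in the changes of the 9 genes was not tested. As a yardstick for dim signals, 990 olfactory receptor genes, which are not known to be used in adipose tissue, had a median level of 3.10 and a 95th percentile of 4.36. Probes differ in how strongly they bind, so this level only orients the eye.

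In wild-type mice some of the 9 genes rose on high-fat diet and others fell, as was so among all genes. Otop1, Elovl3, Dio2 and Ucp1 rose, Ppargc1a and Ppara fell, and Prdm16, Cidea and Kcnk3 did not pass the test. The Ucp1 rise was read within the range of dim probes on all 13 arrays, and the calls of Dio2 and Ucp1 were lost in several refits. In the main fit 6 of 9 passed a limma adjusted p of 0.05, where 35.8% of all genes passed, 17.7% by a rise and 18.1% by a fall. In knockout mice 3 of 9 passed, Otop1 and Elovl3 by a rise and Ppara by a fall, where 34.2% of all genes passed, 14.5% by a rise and 19.7% by a fall. The median change of the 9 genes was -0.04 in wild-type and 0.05 in knockout mice, and that of all genes was -0.03 and -0.06. The chow and high-fat arrays did not overlap for 6 of 9 genes in wild-type mice and for 5 of 9 in knockout mice, and for 43.3% and 43.0% of all genes. No gene that passed turned its sign under another scaling. Centring the arrays on adipocyte markers raised the median change of all genes to 0.67 in wild-type and 0.569 in knockout mice. It adds the same amount to the change of every gene in a contrast, so a small fall turns its sign by construction.

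**Figure D1:**
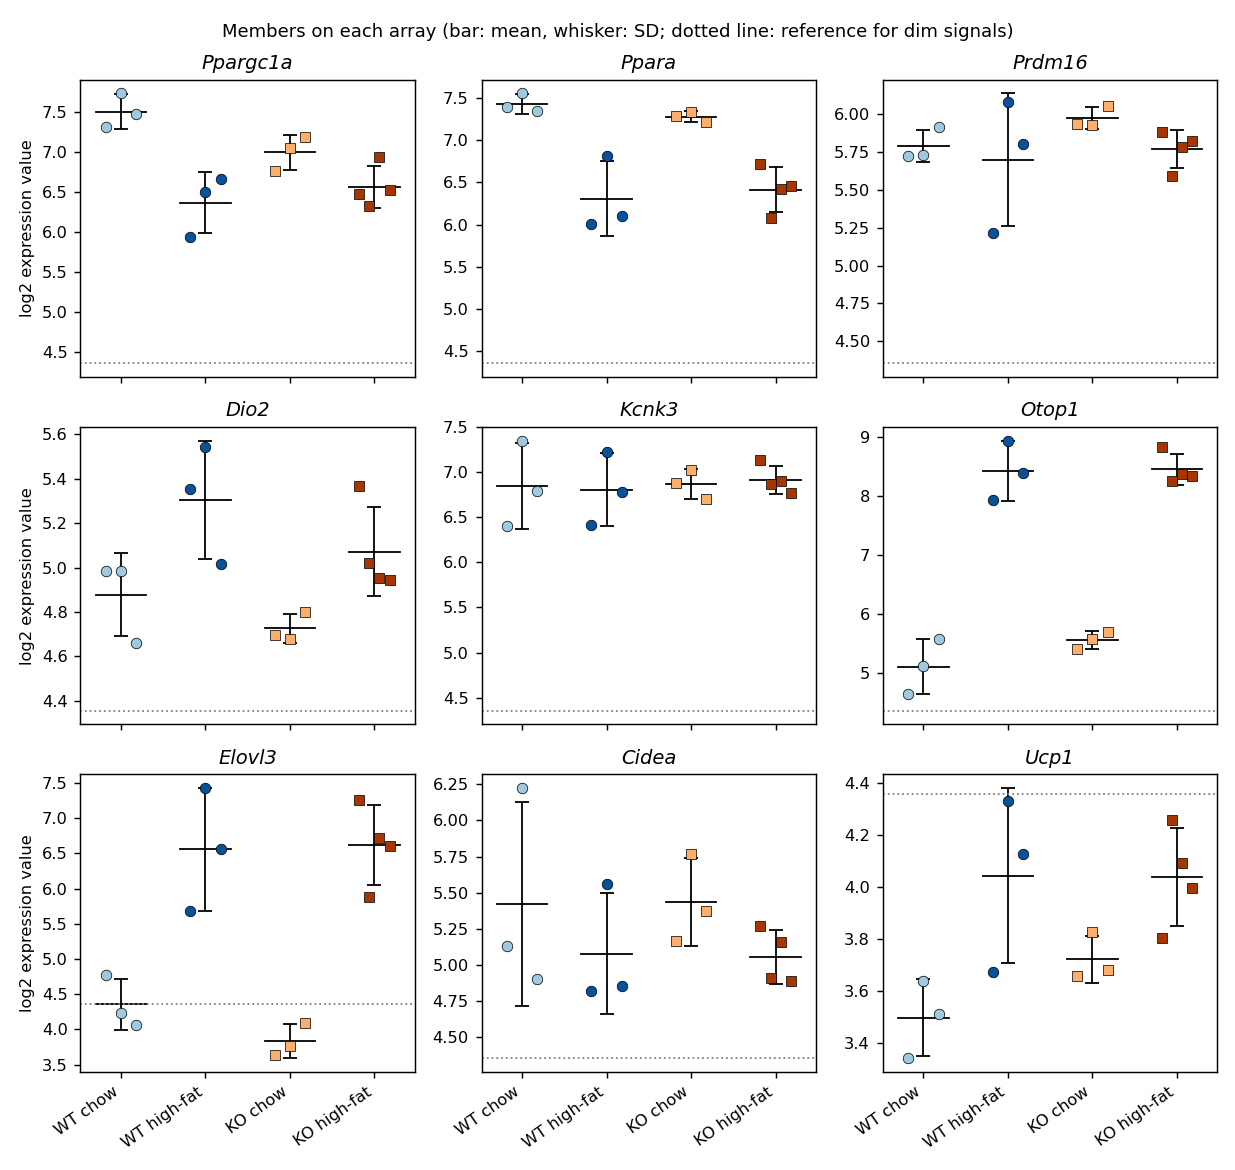
Log2 expression value (vertical axis, which differs between panels) of 9 genes on each of 13 arrays, by group; points are arrays, bars are group means and whiskers the SD, and the dotted line is the 95th percentile of olfactory receptor genes (4.36). The high-fat arrays of Otop1 and Elovl3 sit above all chow arrays, those of Ppara below them, and all Ucp1 arrays lie under the dotted line.

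Ppargc1a encodes PGC-1α, the coactivator that couples adrenergic signals to mitochondrial biogenesis. On chow, the wild-type arrays read 7.31, 7.74 and 7.48 and the knockout arrays 6.76, 7.05 and 7.20. High-fat arrays of wild-type mice read 5.94, 6.50 and 6.67, and those of knockout mice 6.47, 6.32, 6.95 and 6.52. Wild-type chow arrays stood above every other array of the gene, and in knockout mice the highest high-fat array (6.95) lay above the lowest chow array. The fall in wild-type mice was 1.14 ± 0.20 on the log2 scale (standard error from limma, as after every plus-minus sign on a change), or 2.21-fold (adjusted p 0.000472). In knockout mice the change was -0.44 ± 0.19 and did not pass (adjusted p 0.0878). It passed without wild-type high-fat replicate 1 (-0.44, adjusted p 0.0422), an array that enters it only through the shared estimate of the spread. It also passed without knockout high-fat replicate 3 (-0.56, adjusted p 0.0328) and in a fit of the knockout arrays alone (adjusted p 0.0491). With arrays centred on adipocyte markers it stood at 0.19. A second probe set of Ppargc1a read the same pattern, with changes of -1.11 ± 0.18 in wild-type and -0.36 ± 0.17 in knockout mice. The wild-type fall was -0.44 with arrays centred on adipocyte markers and still passed (adjusted p 0.0293). In tissue RNA such as this, fewer cells of a type and less RNA per cell cannot be told apart.

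Ppara encodes PPARα, the fatty acid-sensing nuclear receptor that turns on peroxisomal and mitochondrial fat oxidation. Its wild-type values were 7.39, 7.56 and 7.34 on chow and 6.00, 6.82 and 6.10 on high-fat diet. In knockout mice Ppara read 7.29, 7.34 and 7.22 on chow and 6.71, 6.08, 6.42 and 6.46 on high-fat diet. The lowest chow array of either genotype was above the highest high-fat array. Ppara fell by 1.12 ± 0.19 in wild-type mice (adjusted p 0.000383), and its knockout fall was 0.86 ± 0.18 (adjusted p 0.00191). With arrays centred on adipocyte markers, which fell with it, Ppara stood at -0.43 in wild-type (adjusted p 0.0089) and at -0.24 in knockout mice, where it no longer passed (adjusted p 0.0947). With the liver markers as a covariate its wild-type change was -0.74 (adjusted p 0.0347).

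Prdm16 encodes a zinc-finger factor that sets the brown and beige adipocyte identity. It read 5.72, 5.73 and 5.91 on chow and 5.22, 6.08 and 5.80 on high-fat diet in wild-type mice, so that the diet groups overlapped fully. Knockout mice gave 5.94, 5.93 and 6.06 on chow and 5.88, 5.59, 5.78 and 5.83 on high-fat diet, with every chow array above the high-fat arrays. The change was -0.09 ± 0.17 in wild-type mice (adjusted p 0.729) and -0.20 ± 0.16 in knockout mice (adjusted p 0.361). Centring on adipocyte markers turned both signs, to 0.61 (adjusted p 0.000688) and 0.42 (adjusted p 0.00645). Both lay below the medians of all genes under that centring, 0.67 and 0.569, so the turn is no result about Prdm16. A second Prdm16 probe set gave -0.26 ± 0.13 and -0.16 ± 0.12.

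Dio2 encodes type 2 deiodinase, the enzyme that makes active thyroid hormone inside the cell and whose gene is a classic cAMP target. Chow arrays read 4.99, 4.99 and 4.66 in the wild type and 4.70, 4.68 and 4.80 in the knockout. On high-fat diet Dio2 read 5.36, 5.54 and 5.01 in wild-type and 5.37, 5.02, 4.95 and 4.95 in knockout mice. The lowest high-fat array lay above the highest chow array in both genotypes, in wild-type mice by a narrow margin. Dio2 rose by 0.43 ± 0.15 in wild-type mice, or 1.34-fold (adjusted p 0.0361), and the knockout change of 0.35 ± 0.14 did not pass (adjusted p 0.068). The wild-type call was lost without wild-type chow replicate 3 (0.32, adjusted p 0.145) and without wild-type high-fat replicate 1 (0.40, adjusted p 0.0962) or 2 (0.31, adjusted p 0.135). It was also lost with arrays centred on their medians (adjusted p 0.0654), with array weights (adjusted p 0.0688) and in a fit of the wild-type arrays alone (adjusted p 0.0931). The knockout value passed without wild-type high-fat replicate 2 (adjusted p 0.0486) or 3 (adjusted p 0.0397), arrays that enter it only through the shared estimate of the spread. It also passed with a second quantile normalization (adjusted p 0.0476) and with array weights (adjusted p 0.046). In a fit of the knockout arrays alone it passed as well (adjusted p 0.035). With arrays centred on adipocyte markers the knockout value was 0.97 (adjusted p 1.16e-05). The median of all genes in knockout mice was then 0.569, and 16128 genes passed by a rise. That centring shifts every gene alike, so the pass under it is no result about Dio2.

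Ucp1, the uncoupling protein itself, read 3.34, 3.64 and 3.51 on chow and 3.67, 4.33 and 4.13 on high-fat diet in wild-type mice. Knockout mice gave Ucp1 values of 3.66, 3.83 and 3.68 on chow and 3.81, 4.26, 4.09 and 4.00 on high-fat diet. All 13 arrays were under the yardstick for dim signals, and in wild-type mice the lowest high-fat array was just above the highest chow array. Ucp1 rose by 0.54 ± 0.15 in wild-type mice (adjusted p 0.0118), and the knockout change was 0.32 ± 0.14 (adjusted p 0.104). The wild-type call was lost without wild-type chow replicate 1 (0.47, adjusted p 0.0514), in a fit of the wild-type arrays alone (adjusted p 0.05) and with liver markers as a covariate (0.55, adjusted p 0.101). The knockout change passed without wild-type high-fat replicate 1 (adjusted p 0.0376) and with array weights (adjusted p 0.0346). It also passed in a fit of the knockout arrays alone (adjusted p 0.0384) and with a replicate block (adjusted p 0.0227). With arrays centred on adipocyte markers the knockout change was 0.94 (adjusted p 3.12e-05). The median of all genes in knockout mice was then 0.569, and 16128 genes passed by a rise. The pass under that centring is therefore no result about Ucp1.

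Otop1 encodes otopetrin 1, a proton channel reported in brown adipocytes. On chow, wild-type arrays read 4.63, 5.11 and 5.57, and knockout arrays 5.40, 5.57 and 5.70. On high-fat diet, Otop1 values were 7.93, 8.94 and 8.40 for the wild type and 8.83, 8.25, 8.37 and 8.34 for the knockout. More than 2 log2 units separated the highest chow from the lowest high-fat array in each genotype. Otop1 rose by 3.32 ± 0.25 in wild-type mice, or 9.96-fold (adjusted p 4.6e-07), and by 2.89 ± 0.24 in knockout mice, or 7.43-fold (adjusted p 1.16e-06). Its size of change was greater than that of 99.77% of genes in wild-type and 99.8% in knockout mice. With arrays centred on adipocyte markers the rises were 4.01 and 3.52.

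Elovl3 encodes an elongase that makes very-long-chain fatty acids and is switched on in brown fat by cold. Its chow values were 4.77, 4.24 and 4.06 in wild-type and 3.63, 3.77 and 4.10 in knockout mice, at or near the level of dim signals. High-fat arrays read 5.68, 7.43 and 6.56 in wild-type and 7.26, 5.88, 6.72 and 6.60 in knockout mice, all above every chow array but widely spread. Elovl3 rose by 2.20 ± 0.39 in wild-type mice (adjusted p 0.000551), and its knockout rise was 2.78 ± 0.36 (adjusted p 5.56e-05). All 3 knockout and 2 of 3 wild-type chow arrays lay under the yardstick for dim signals, so these log2 changes are given with no fold. The wild-type rise lay between 1.76 and 2.64 when each array was left out in turn.

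Cidea encodes a lipid-droplet protein used as a marker of brown and beige fat. It read 5.13, 6.22 and 4.90 on chow and 4.82, 5.56 and 4.85 on high-fat diet in wild-type mice, so that replicate 2 was the highest of both groups. In knockout mice Cidea read 5.17, 5.77 and 5.37 on chow and 5.27, 4.91, 5.16 and 4.89 on high-fat diet, with overlap. The diet change was -0.34 ± 0.30 in wild-type (95% interval -0.98 to 0.30, adjusted p 0.416) and -0.38 ± 0.28 in knockout mice (-0.98 to 0.22, adjusted p 0.331). With arrays centred on adipocyte markers both values were above 0 (0.35 and 0.25), and neither passed.

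Kcnk3 encodes TASK1, a potassium channel known to restrain adrenergic heat production in adipocytes. In wild-type mice it read 6.40, 7.35 and 6.79 on chow and 6.42, 7.22 and 6.79 on high-fat diet. Its knockout values were 6.88, 7.02 and 6.70 on chow and 7.13, 6.87, 6.90 and 6.77 on high-fat diet. The ranges of the 4 groups overlapped throughout. The diet change was -0.04 ± 0.22 in wild-type mice (95% interval -0.52 to 0.44) and 0.05 ± 0.21 in knockout mice (-0.40 to 0.50). Under centring on adipocyte markers the values were 0.66 (adjusted p 0.00183) and 0.67 (adjusted p 0.00104), and the wild-type sign turned. The medians of all genes under that centring were 0.67 and 0.569.

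**Figure D2:**
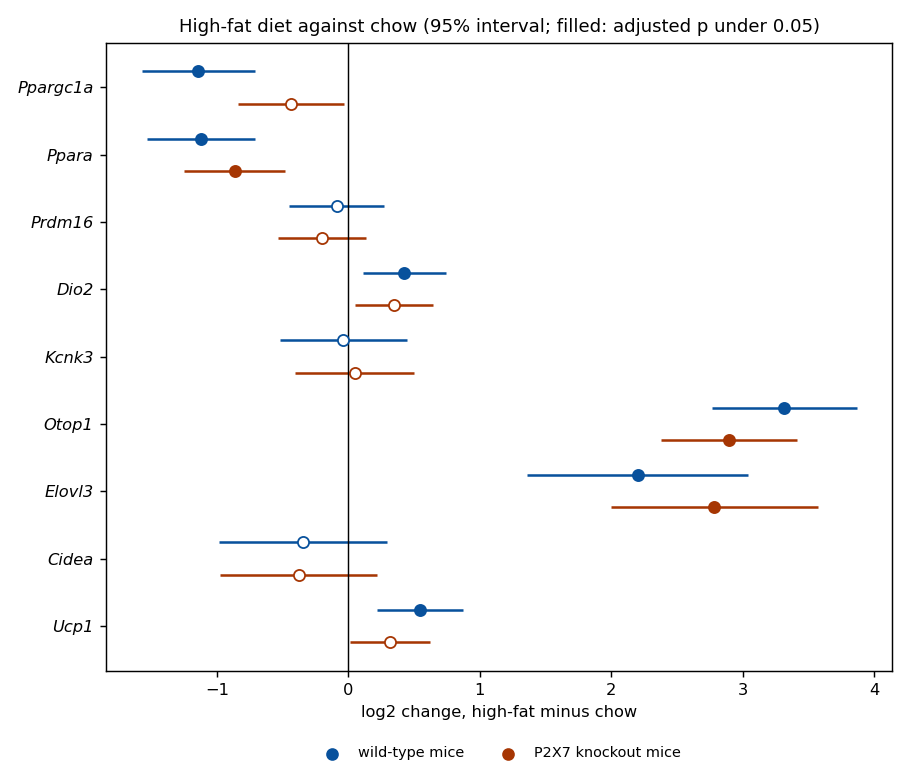
Log2 change from chow to high-fat diet (horizontal axis) of 9 genes in wild-type and knockout mice, with 95% intervals from limma and filled points where the adjusted p was under 0.05. Otop1 and Elovl3 stand to the right in both genotypes and Ppara to the left. With arrays centred on adipocyte markers Prdm16 and Cidea in both genotypes, wild-type Kcnk3 and knockout Ppargc1a would lie right of 0. So would the medians of all genes (0.67 in wild-type and 0.569 in knockout mice).

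None of the 9 genes passed for genotype. On chow, on high-fat diet and over both diets, 0 of 9 genes passed for knockout against wild type, where 0.133%, 0.0425% and 0.106% of all genes passed (25, 8 and 20 genes). The number of the 9 genes with an unadjusted limma p under 0.05 was 1 on chow and 0 on high-fat diet and over both diets. Of all 18820 genes, 1810, 1394 and 1361 had such a p, so these counts are no result about the 9 genes. On chow, arrays of the genotypes did not overlap for 4 of 9 genes (Ppargc1a, Ppara, Prdm16 and Ucp1), and for 14.9% of all genes. On high-fat diet they overlapped for all 9, and did not for 6.68% of all genes. The one difference whose 95% interval left out 0 was that of Ppargc1a on chow, -0.51 ± 0.20 in knockout against wild-type mice (-0.94 to -0.08, adjusted p 0.426). Its second probe set gave -0.52. On high-fat diet Ppargc1a differed by 0.20 ± 0.19 (-0.20 to 0.60, adjusted p 0.866). For Otop1 on high-fat diet the difference was 0.03 ± 0.24 (-0.49 to 0.54), for Elovl3 0.06 ± 0.36 (-0.73 to 0.85) and for Ucp1 -0.01 ± 0.14 (-0.31 to 0.30).

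Whether the diet acted differently in the knockout was tested by the diet-by-genotype interaction. It passed for 0 of 9 genes and for 0% of all 18820 genes with limma, of which 1829 had an unadjusted p under 0.05, among them 1 of the 9 genes. That gene was Ppargc1a, whose diet change was 0.70 ± 0.27 less negative in knockout mice (95% interval 0.12 to 1.29, adjusted p 0.446). Its second probe set gave 0.75 ± 0.25 (adjusted p 0.404 over all probe sets with 1 gene). Over 10 alternative settings the Ppargc1a interaction lay between 0.63 and 0.87, and between 0.49 and 0.85 when each array was left out, with no adjusted p under 0.265. So the fall past the threshold in wild-type mice and not in knockout mice is not shown to differ between them. The interaction was 0.58 ± 0.53 for Elovl3 (-0.57 to 1.74) and -0.42 ± 0.35 for Otop1 (-1.18 to 0.33). With the liver markers as a covariate the Ppargc1a change with diet was -1.34 in wild-type mice (adjusted p 0.004) and -0.47 in knockout mice (adjusted p 0.0738). The liver markers differed between the groups and were highest in wild-type mice on chow, so this fit cannot separate them from diet and genotype. Their part in the Ppargc1a values was not tested.

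**Figure D3:**
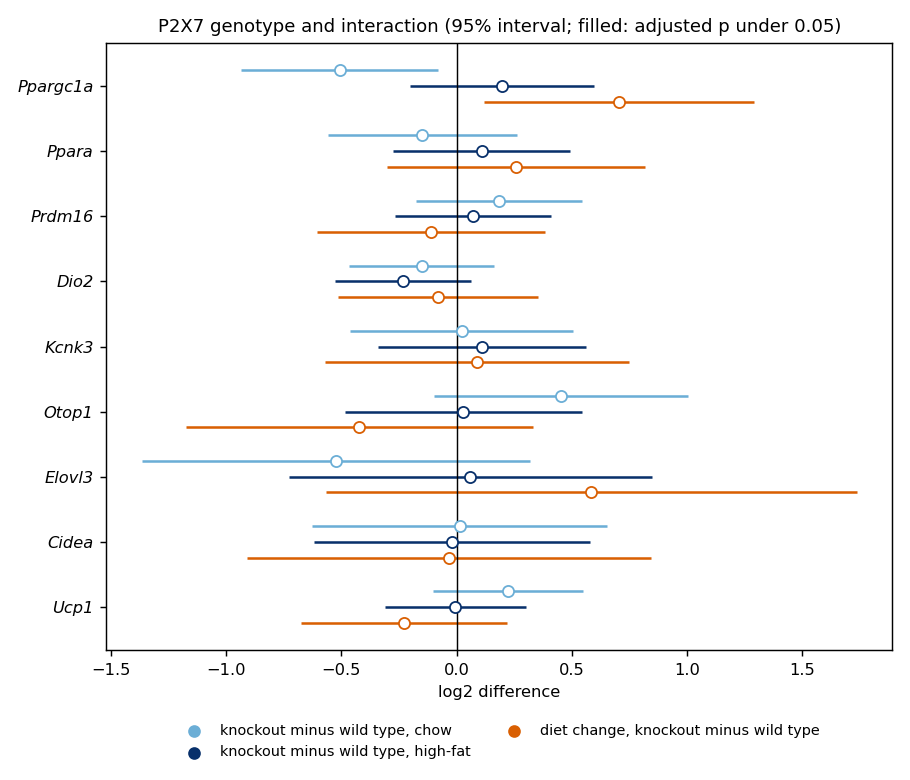
Log2 difference (horizontal axis) of knockout minus wild type on chow and on high-fat diet, and the difference of the diet changes, with 95% intervals from limma; no point is filled because 0 of 9 genes passed in any of them. The Ppargc1a intervals on chow (-0.94 to -0.08) and for the interaction (0.12 to 1.29) are the ones that leave out 0.

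Within groups the 9 genes tended to be high or low on the same arrays. In wild-type mice on high-fat diet, replicate 2 read highest for 8 of 9 genes and replicate 1 lowest for 8 of 9. In knockout mice on high-fat diet, replicate 1 read highest for 7 of 9. Over deviations from the group mean on 13 arrays, 34 of 36 pairs of genes had r above 0 (median 0.496), the highest being Ppara with Elovl3 (0.831), Cidea with Kcnk3 (0.823) and Prdm16 with Otop1 (0.812). Adipocyte markers ran the same way, with r above 0 for 9 of 9 genes (median 0.746, Ppara 0.907, Otop1 0.871), and so did endothelial markers (9 of 9, median 0.652), markers of classical brown depots (9 of 9, median 0.505) and skeletal muscle markers (9 of 9, median 0.302). Liver markers and nerve and Schwann cell markers had r above 0 for 8 of 9 genes each (medians 0.233 and 0.0604). Dim probes made up 1 of 3 brown depot, 3 of 10 skeletal muscle and 3 of 4 nerve markers. Macrophage markers ran the other way, with r below 0 for 9 of 9 genes (median -0.568, Cidea -0.901). These are descriptions over arrays that share RNA, labelling and scaling between the genes. The same counts were not taken over all genes, so they are not shown to be particular to the 9. For Otop1 and Elovl3 the r with macrophage markers was -0.518 and -0.568. These within-group values do not bear on the changes between diet groups, and the cells behind the Otop1 and Elovl3 signal were not tested. Of the marker lists, liver had the highest r with Dio2 (0.877), a list picked out on these same arrays. With liver markers as a covariate the Dio2 change was 0.84 in wild-type (adjusted p 0.00055) and 0.41 in knockout mice (adjusted p 0.00286). In wild-type mice the liver markers themselves averaged 6.94 on chow and 5.75 on high-fat diet. The fit therefore cannot separate them from diet, and 0.84 is no better estimate of the rise.

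**Figure D4:**
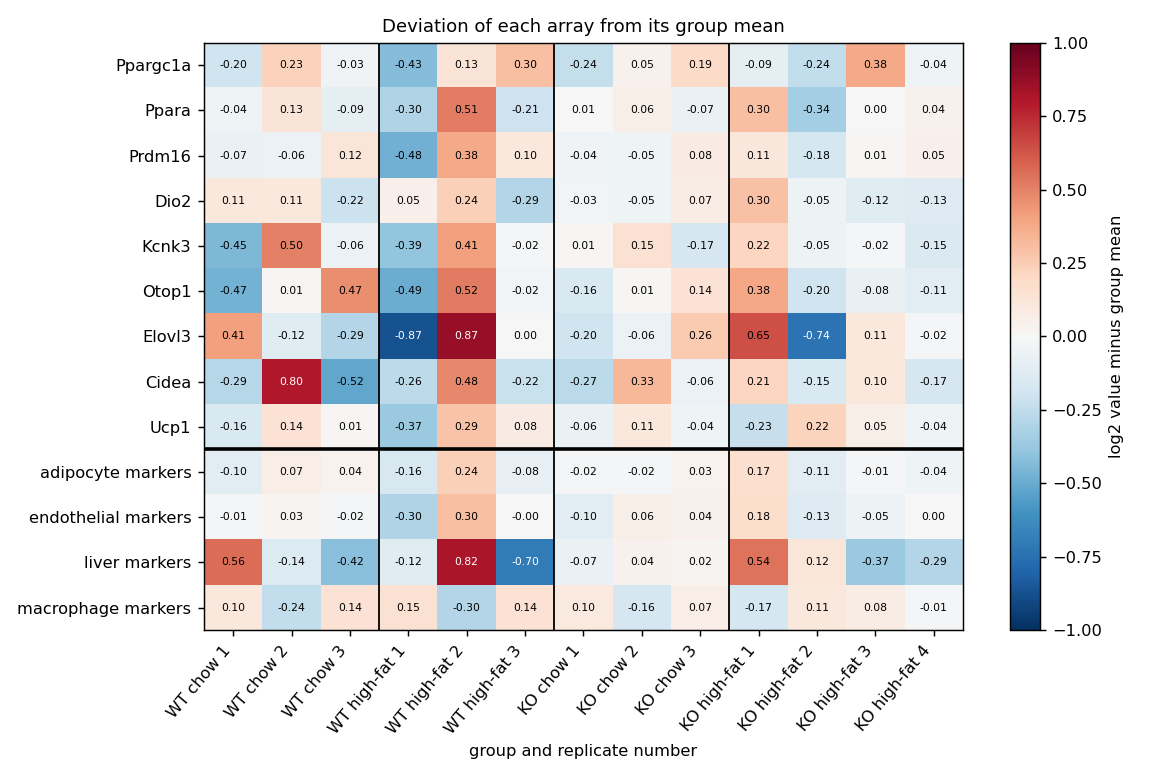
Log2 value of each gene, and mean log2 value of each marker list, minus its group mean (colour and number) on each of 13 arrays; vertical lines divide the groups. Wild-type high-fat replicate 2 is above its group mean for all 9 genes and for adipocyte markers and below it for macrophage markers.

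The genes whose values lay closest to those of a member over 13 arrays were found by root mean square difference after centring each gene. This was done for the 4 members with the widest range of the 4 group means. For Otop1 they were Ubd (0.292), Spc25 (0.335) and Cdkl4 (0.346), which rose by 3.19, 2.77 and 2.69 in wild-type mice. For Elovl3 they were Fam122b (0.434), Shisa6 (0.468) and Ddah1 (0.477), and for Ppara, Pgm1 (0.098), Mccc2 (0.099) and Sntb1 (0.104). For Ppargc1a they were Rcor2 (0.176), Txnrd3 (0.180) and Glt28d2 (0.187), which fell by 1.18, 1.01 and 1.04 in wild-type and by 0.68, 0.51 and 0.52 in knockout mice. All these genes were chosen for likeness over the same arrays, so like diet changes follow from the choice.

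Around the members, the control of heat production was followed in 10 lists of other genes. Their counts are read against all genes, of which 17.7% rose and 18.1% fell in wild-type mice and 14.5% and 19.7% did so in knockout mice, and a share near these is no result about a list. In the adrenergic and cAMP list, 4 of 20 measured genes rose and 6 fell in wild-type mice, and 2 rose and 7 fell in knockout mice. Pde3b, the phosphodiesterase by which insulin lowers cAMP, fell by 1.42 ± 0.15 in wild-type and 1.17 ± 0.14 in knockout mice. Adcy6, which makes cAMP, fell by 1.00 ± 0.12 and 0.85 ± 0.11, and Lipe, hormone-sensitive lipase, by 0.79 ± 0.11 and 0.68 ± 0.10. With arrays centred on adipocyte markers Lipe no longer passed, at -0.09 (adjusted p 0.286) and -0.05 (adjusted p 0.506). Lipe is itself among those markers, so that centring draws it towards 0 by construction. Pde3b and Adcy6, which are not among them, still passed in both genotypes. The kinase gene Map2k6, upstream of p38, rose by 0.62 ± 0.15 and 1.05 ± 0.14. Both breakdown and synthesis of cAMP were represented among the genes that fell.

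Of the nuclear receptors and coactivators, 2 of 20 rose and 9 fell in wild-type mice, and 1 rose and 8 fell in knockout mice. Pparg, the master regulator of adipocytes, fell by 0.69 ± 0.09 and 0.51 ± 0.08, but stood at 0.0043 and 0.11 with arrays centred on adipocyte markers. Rxra, its dimer partner, fell by 0.61 ± 0.10 and 0.69 ± 0.09, with 0.09 and -0.06 under that centring (adjusted p 0.357 and 0.521). Thrb, a thyroid hormone receptor, fell by 1.03 ± 0.20 and 0.93 ± 0.18, and did not pass under that centring, at -0.33 (adjusted p 0.0501) and -0.30 (adjusted p 0.0539). Ppargc1b, the close relative of Ppargc1a, fell by 0.57 ± 0.11 and 0.41 ± 0.10, against 0.13 and 0.21 under that centring. Among relatives of the members as a whole, 8 of 34 rose and 6 fell in wild-type mice and 6 rose and 8 fell in knockout mice, and the potassium channels Kcnk13 (1.56 ± 0.14 and 1.16 ± 0.13) and Kcnk6 (1.13 ± 0.12 and 0.83 ± 0.11) rose where Kcnk3 did not pass.

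Among factors and signals of brown and beige identity, 2 of 19 rose and 6 fell in wild-type mice, and 1 rose and 5 fell in knockout mice. Ebf2, which marks brown and beige precursors, fell by 1.03 ± 0.11 and 0.74 ± 0.10. Bmp4 fell by 1.37 ± 0.13 and 0.82 ± 0.12, Bmp7 by 0.84 ± 0.18 and 1.50 ± 0.17, and Cebpa, an adipogenic factor, by 1.01 ± 0.12 and 0.98 ± 0.11. With arrays centred on adipocyte markers the calls were lost for Ebf2 in knockout mice (-0.11, adjusted p 0.458), Bmp4 in knockout mice (-0.19, adjusted p 0.14) and Bmp7 in wild-type mice (-0.14, adjusted p 0.462). In the list of repressors 4 of 16 rose and 6 fell in each genotype. Ikbke, a kinase induced in obese fat and known to lower energy expenditure, rose by 1.68 ± 0.10 and 1.01 ± 0.10, while Nrip1, the corepressor RIP140, fell by 0.95 ± 0.14 and 0.82 ± 0.13. The Nrip1 calls were lost under that centring, at -0.26 (adjusted p 0.0787) and -0.19 (adjusted p 0.154).

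Effector genes of brown and beige cells were split, with 5 of 19 risen and 3 fallen in wild-type mice and 4 risen and 4 fallen in knockout mice. Acot11, a thioesterase of brown fat, rose by 1.46 ± 0.15 and 0.86 ± 0.14. Ffar4, a fatty acid receptor, fell by 1.37 ± 0.16 and 1.61 ± 0.15. In the list of heat production without UCP1, 4 of 13 rose and 1 fell in wild-type mice, and 4 rose and 3 fell in knockout mice. Of that list, Ckb, creatine kinase B, rose by 1.50 ± 0.11 and 1.27 ± 0.10, the creatine transporter Slc6a8 by 1.74 ± 0.15 and 1.34 ± 0.14, and Gatm, the first enzyme of creatine synthesis, by 1.30 ± 0.16 and 1.72 ± 0.15. Gamt, the enzyme after Gatm, stood at -0.25 ± 0.10 in wild-type mice and fell by 0.37 ± 0.10 in knockout mice. The mitochondrial creatine kinases Ckmt1 (-0.15 and -0.22) and Ckmt2 (-0.10 and -0.07) did not pass. The values of these 3 genes are given because they stand beside Gatm and Ckb in creatine metabolism, a choice made after values were seen. Alpl, another gene of the list, was also picked after values were seen. Its group means were 7.00 on chow and 6.00 on high-fat diet in wild-type mice. In knockout mice they were 6.72 and 6.09. Ryr2, a calcium release channel, rose by 0.69 ± 0.12 and 0.96 ± 0.11.

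In the list of PPARα targets and fat oxidation, 2 of 18 rose and 5 fell in wild-type mice, and 1 rose and 4 fell in knockout mice. Vnn1, a PPARα target, fell by 1.52 ± 0.26 and 1.06 ± 0.24, and the peroxisomal enzyme gene Ehhadh by 1.11 ± 0.29 and 1.00 ± 0.27. Under centring on adipocyte markers Ehhadh passed in neither genotype (-0.41, adjusted p 0.0799, and -0.38, adjusted p 0.0884), and Vnn1 did not pass in knockout mice (-0.43, adjusted p 0.054). Cpt1a, the carnitine transferase that admits fatty acids to mitochondria, rose by 0.47 ± 0.07 and 0.45 ± 0.06. Of the mitochondrial biogenesis genes, 0 of 16 rose and 5 fell in wild-type mice, and 1 rose and 6 fell in knockout mice, with Pink1 down by 0.84 ± 0.09 and 0.82 ± 0.09 and Mfn2, a fusion protein, by 0.70 ± 0.10 and 0.66 ± 0.09. With arrays centred on adipocyte markers neither passed, with -0.14 (adjusted p 0.232) and -0.20 (adjusted p 0.0783) for Pink1 and -0.0080 (adjusted p 0.932) and -0.04 (adjusted p 0.672) for Mfn2. Of 10 genes of thyroid hormone handling, 3 rose and 3 fell in wild-type mice and 2 rose and 2 fell in knockout mice. Wsb1, which leads type 2 deiodinase to degradation, rose by 1.03 ± 0.15 and 0.85 ± 0.14.

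The list medians lay between -0.17 and 0.12 in wild-type mice and between -0.16 and 0.06 in knockout mice, beside -0.03 and -0.06 for all genes. Where arrays were centred on adipocyte markers, the medians of all 10 lists turned or stayed above 0, from 0.525 to 0.818 in wild-type and from 0.462 to 0.686 in knockout mice. The medians of all genes were then 0.67 and 0.569. That centring shifts every gene alike, so list medians above 0 are no result about the lists. In every list 0 genes passed for genotype on either diet, over both diets or for the interaction, against the shares of all genes given above.

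**Figure D5:**
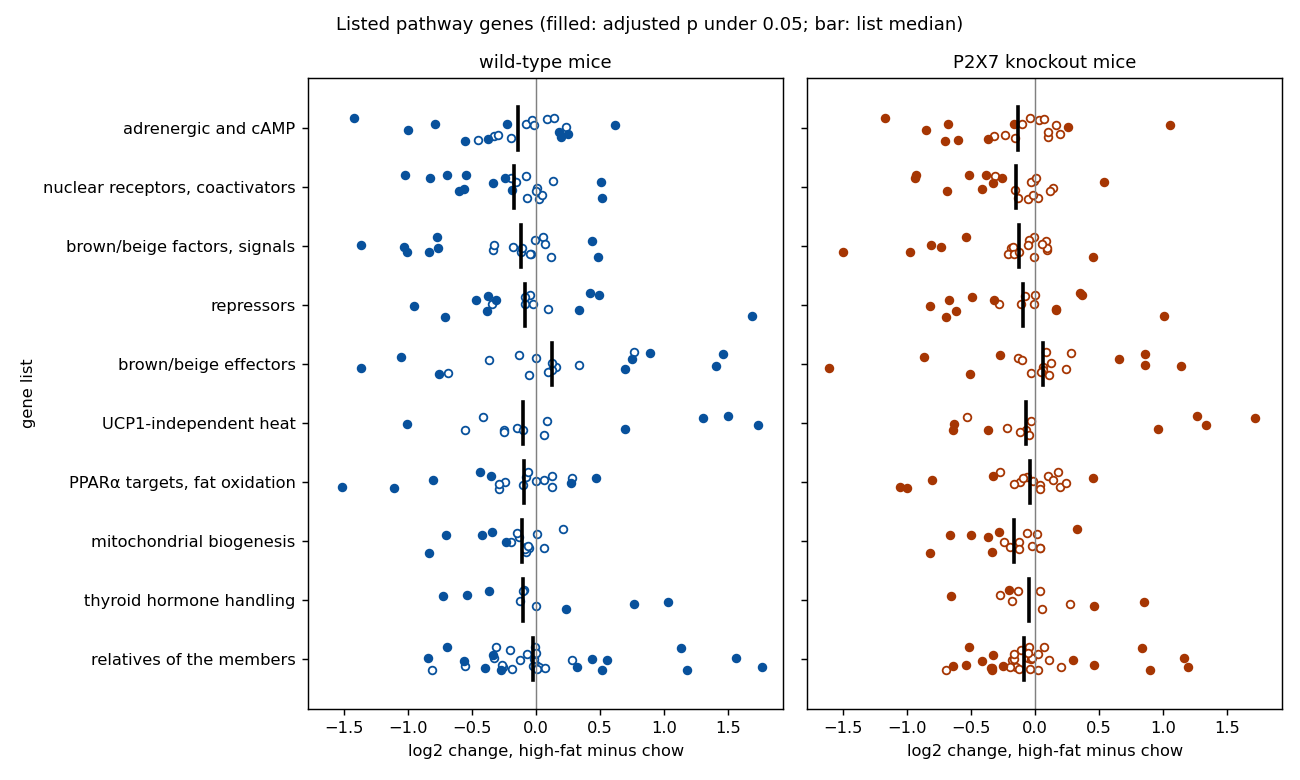
Log2 change from chow to high-fat diet (horizontal axis) of each measured gene in 10 lists (vertical axis), in wild-type mice (left) and knockout mice (right); filled points passed at adjusted p under 0.05 and bars mark list medians. Points of every list lie on both sides of 0. With arrays centred on adipocyte markers all 10 medians lie above 0, as do those of all genes (0.67 and 0.569).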

How the data were processed

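Each of 13 Affymetrix arrays was hybridised with label made from 100 ng of RNA. The deposited values are on a log2 scale, 1 for each of 35556 probe sets. The authors made them with RMA, a method that corrects background and scales arrays to a common distribution, as the submitters' processing notes name it. Its version and a genome build are not given in the sources used here. No normalisation was added. By the platform annotation, 21218 probe sets had 1 gene symbol, 1881 several and 12457 none; only the first were used, and the highest-mean probe set stood for a gene. One limma 3.58.1 model (R 4.3.3, with version 1.17.8 of data.table) with a mean per group and an intensity trend gave the diet, genotype and interaction contrasts, with Benjamini-Hochberg adjustment over 18820 genes and a threshold of 0.05. The steps were tested on simulated data. The number of arrays limits the precision.

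The genes followed, the gene and marker lists and the tests were chosen with earlier results of these data known. From each list up to 4 genes that passed and had the smallest p could be named. Genes of like pattern were the 3 nearest by root mean square difference, for the members with the widest range of the group means. Promoters came from the RefSeq table of GRCm38.p6, and the figures from Python 3.11.15 with pandas 2.3.3, numpy 2.4.6 and matplotlib 3.10.9. Alternatives changed the variance model, scaling, probe set choice, dim-gene filter, array weights, the groups fitted, a liver-marker covariate and a replicate block, and each array was also left out once. Same-numbered arrays did not deviate together (r from -0.298 to 0.222), so the numbers were not taken as pairs.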

Additional observations from a re-analysis of the deposited data

How the results depend on the processing

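Of 1272 refitted values of the 9 genes under 11 alternatives and 13 left-out arrays, 29 changed their call and 91 changed sign with no call on either side. Otop1 and Elovl3 passed under all of them in both genotypes, and Ppargc1a and Ppara in wild-type mice. The values that turned with a call were 3, all with arrays centred on adipocyte markers: Prdm16 with diet, to 0.61 in wild-type and 0.42 in knockout mice, and Kcnk3 in wild-type mice, to 0.66. The medians of all genes were 0.67 in wild-type and 0.569 in knockout mice under that centring. The number of genes of the 9 past the threshold for diet in knockout mice, 3 in the report, was 6 with that centring, 5 with array weights, 6 when the fit held only the knockout arrays, and 3 to 5 when each array was left out, with 5 reached without wild-type high-fat replicate 1; in wild-type mice it was 4 to 8. Wild-type arrays enter the diet contrast in knockout mice only through the shared estimate of the spread. The count of the 9 genes was 0 for genotype and interaction under every alternative that could be run. A replicate block, whose numbers do not pair the samples (4 of 12 arrays were best matched by their own number), gave 6590 and 5597 genes for diet in wild-type and knockout mice and Ucp1 in knockout mice at 0.33 (adjusted p 0.0227). Over all genes, calls for diet in wild-type mice were 6736, with 16853 under adipocyte-marker centring (16357 rose and 496 fell, against 3327 and 3409) and 3968 with the liver covariate; in knockout mice they were 6429 and 16574 (16128 rose and 446 fell, against 2721 and 3708). Genotype on chow gave 25, with 0 under the liver covariate and 6 with the block; on high-fat diet 8, with 2 for only the groups compared, 13 and 0; over both diets 20, with 31 under adipocyte centring, 32 with array weights and 6 with the block. The interaction gave 0, with 2 without the intensity trend, 1 with median centring and 1 with array weights. Leaving out each array in turn gave 2 to 44, 6 to 177, 11 to 62 and 0 to 106 calls for these 4, and 5678 to 7039 and 5105 to 6652 for diet in wild-type and knockout mice. Signal over background limits Ucp1, and Elovl3 on chow; the causes of the other changes were not tested.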
